A study of Mus musculus with 4 samples.

Results

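The collagen genes were taken as every probe, control spots aside, whose gene name in the scanner files was Col, a number, a and a number. The rule found 78 probes for 39 genes, among 41174 probes for 27975 gene names. Induced hepatocyte-like (iHep) cells, C57BL/6 mouse cells derived from what the labels call MDFs, were grown in 2D or in 3D culture. There were 2 independent experiments, which the labels name iHep-1 and iHep-2, and each gave 1 array per culture, so each culture has n = 2. The labels name no allele, agent, age or time point for any group. A plus sign stands in the title of each 2D sample and of no 3D sample; its meaning is not given, so it cannot be told apart from culture. Total RNA was labelled with Cy3 and hybridised to 1-colour arrays of 60-base probes, and all 4 arrays sat on 1 slide with 1 scan time. The number of arrays limits the precision of every value, and p-values measure the spread between these 4 samples.

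Collagens are secreted proteins of 3 chains wound around each other, and the chains of each type come from separate genes. Fibrillar collagens build the ropes of connective tissue, network collagens build the sheet under epithelia, and fibril-associated collagens with interrupted triple helices (FACITs) sit on the surface of fibrils. In liver, type I and type III collagens are made mainly by stellate cells and fibroblasts and accumulate in fibrosis, while type XVIII collagen is also made by hepatocytes.

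Levels are log2 processed signal relative to the 75th percentile of the array. A probe is called detected where the scanner software marked it well above background, on 5 or more of its 10 spots where it is repeated. The 75th percentile lay at 525 (2D) and 595 (3D) intensity units for iHep-1 and at 617 and 399 for iHep-2, and 23061 to 24414 probes were detected per array. The dimmest value was -8.31 and -8.39 in 2D and 3D of iHep-1 and -8.57 and -7.89 in iHep-2. A probe without signal therefore sits higher in 3D of iHep-2 than in 2D of iHep-2 on this scale. All 9 hepatocyte markers with a probe, Alb and Hnf4a among them, were detected on all 4 arrays. Of 12 fibroblast markers 8 and 9 were detected in iHep-1 (2D, then 3D), and 8 and 6 in iHep-2. Pdgfra, Vim, S100a4, Fn1, Twist1 and Prrx1 were detected on all 4 arrays. Thy1, Lum and Dcn, fibroblast surface and matrix markers, were not well above background on any array. Of 8 stellate or myofibroblast markers 4 and 4 were detected in iHep-1 and 3 and 2 in iHep-2.

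Probe letters show what was read for these genes. A triple helix needs glycine as the first of every 3 residues, and 3 of the 78 probes lie in such a repeat: an open reading frame with a glycine codon (GGN, in capitals) in every 3 codons throughout. They are shown because only the first was detected.
Col5a1, chr2:27842243-27844666, plus strand: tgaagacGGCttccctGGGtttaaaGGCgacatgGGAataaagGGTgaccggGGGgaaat
Col11a2, chr17:34189287-34189453, plus strand: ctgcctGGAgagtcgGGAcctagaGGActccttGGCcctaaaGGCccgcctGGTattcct
Col5a3, chr9:20590066-20590795, minus strand: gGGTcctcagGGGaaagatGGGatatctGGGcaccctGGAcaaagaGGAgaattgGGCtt
Positions are on mm9, as the scanner files give them, and each of these probes spans a splice junction, since its positions cover more than its 60 bases. The Col5a1 probe was detected on all 4 arrays and is the probe that stands for Col5a1 below. The Col11a2 and Col5a3 probes were detected on no array, while another probe of each gene was.

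Col4a1, Col4a2 and Col18a1 were the 3 genes with at least 2 probes detected on all 4 arrays. For each of them 1 of these probes lies in coding sequence near the 3′ end of the gene, and it is shown because its values check those of the other probe.
Col4a1, chr8:11199846-11201680, minus strand: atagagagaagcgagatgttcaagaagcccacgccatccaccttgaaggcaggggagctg
Col4a2, chr8:11448180-11448239, plus strand: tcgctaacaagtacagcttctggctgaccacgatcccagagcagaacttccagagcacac
Col18a1, chr10:76516065-76516124, minus strand: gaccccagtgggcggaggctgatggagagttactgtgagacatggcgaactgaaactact
The probes are written in the direction of the transcript, with their mm9 positions.

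Col4a1 and Col4a2 are neighbours that run in opposite directions from a shared promoter. In the RefSeq table of GRCm38.p6 the start of Col4a1 (minus strand) lies at 11312826 and that of Col4a2 (plus strand) at 11312805 of chromosome 8, so the 22 bases between them, both starts included, belong to both transcripts.
Col4a2 start to Col4a1 start, chr8:11312805-11312826, plus strand of GRCm38.p6: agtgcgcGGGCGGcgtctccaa
The capitals mark GGGCGG, the letters of a GC box, searched on both strands. Over windows of 250 bases before to 50 after the start, GGGCGG was present in 35.7% of 32851 promoters and in 19 of the 31 collagens with a window, Col4a1 and Col4a2 included. CCAAT was present in 37.4% of the promoters and in 12 of the 31 collagens, again with both genes. TATAAA was present in 13.6% and in 5 of the 31, with neither gene. These matches are letters in a window and say nothing of binding. No motif overlapped GGGCGG in the 22 bases printed.

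Of the 39 collagen genes, 14 (35.9%) had a probe detected on all 4 arrays, against 52.2% of all gene names. These were the fibrillar genes Col1a2, Col2a1, Col5a1, Col11a1 and Col11a2, the basement membrane genes Col4a1, Col4a2, Col4a4 and Col4a6, the FACIT gene Col9a2, the multiplexin genes Col15a1 and Col18a1, and Col7a1 and Col8a1. Another 11 (28.2%) were detected on no array, against 36.3% of all gene names: Col4a3, Col5a2, Col6a3, Col8a2, Col9a1, Col12a1, Col19a1, Col28a1 and the transmembrane collagens Col13a1, Col17a1 and Col23a1. A pattern held by 4 genes (10.3%), against 1.62% of all gene names, was detection in 3D of iHep-1 alone: Col1a1, Col3a1, Col4a5 and Col6a2.

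The other 10 genes were split by experiment or culture. Col6a1 and Col10a1 were detected on both iHep-1 arrays only (1.1% of all gene names), and Col5a3 and Col27a1 on both iHep-2 arrays only (0.765%). Col9a3 was detected in both 2D arrays only (0.611%). Col14a1 was detected on all but 3D of iHep-2 (1.65%), and Col16a1 and Col22a1 on all but 2D of iHep-1 (0.858%). Col24a1 was seen in 3D of iHep-2 alone (0.854%) and Col25a1 in 2D of iHep-1 alone (0.676%). By array, 19 and 23 collagens (48.7% and 59%) were detected in 2D and 3D of iHep-1 and 20 and 19 (51.3% and 48.7%) in iHep-2. Of all gene names, 57% and 58.7% were detected in iHep-1 and 58.5% and 55.9% in iHep-2.

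**Figure D1:**
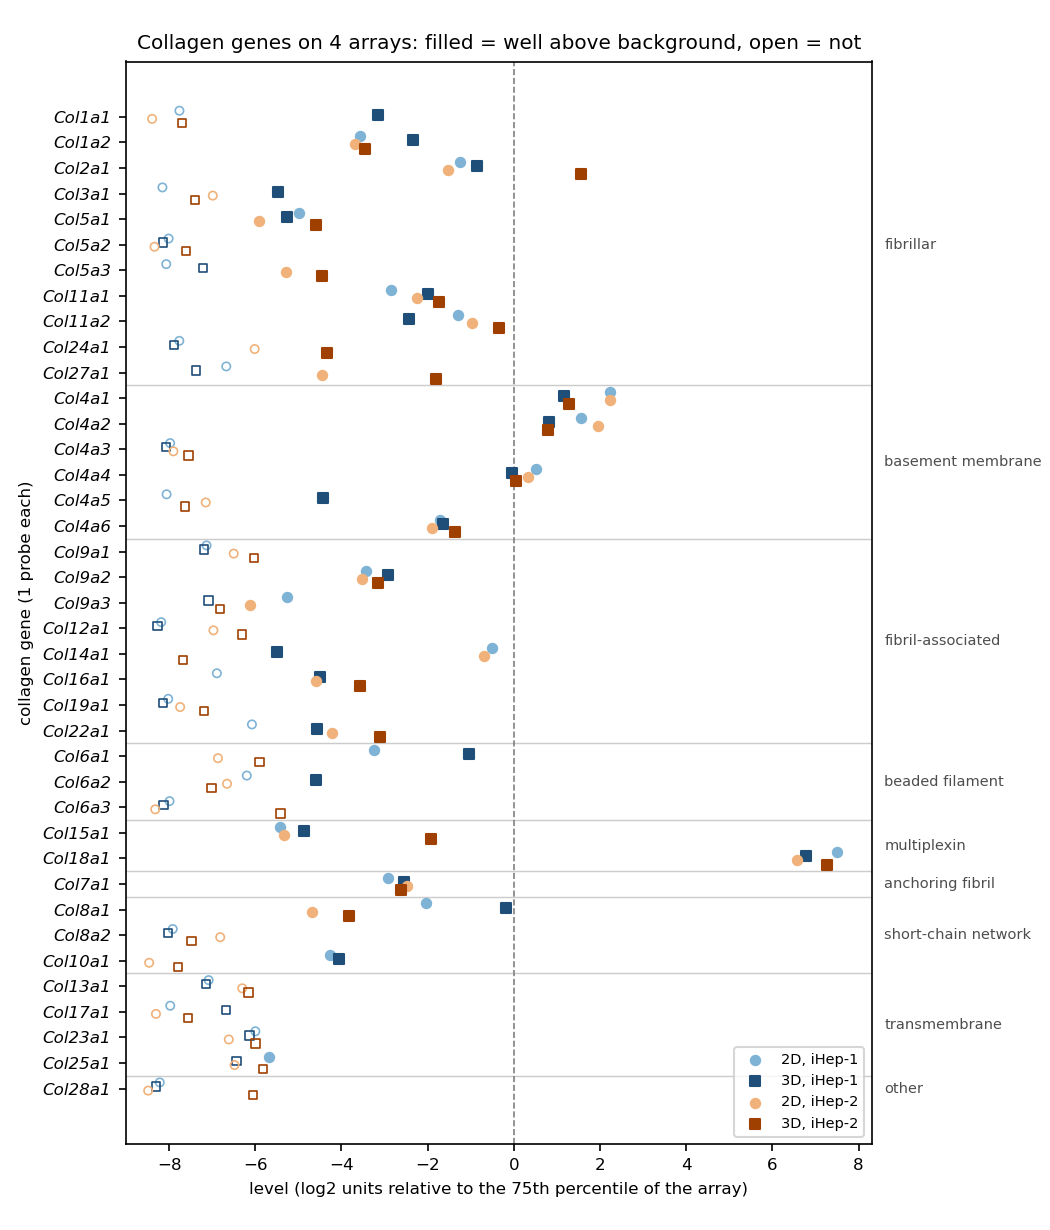
Level of 1 probe of each of the 39 collagen genes on the 4 arrays, in log2 units relative to the 75th percentile of the array; filled symbols are detected, open symbols are not, circles are 2D and squares 3D. Probes of different genes differ in brightness for the same amount of RNA, so positions are to be compared along a line; 11 genes have open symbols only.

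Detection also depended on the probe. Of the 78 probes, 17 were detected on all 4 arrays, 3 on 3, 5 on 2, 8 on 1 and 45 on none. Of the 28 genes with several probes, 17 had some probes detected on an array and others on none. The plainest case was Col2a1, the type II collagen chain of cartilage. Of its probes 2 overlap by 40 bases on chromosome 15, and 1 was detected on all 4 arrays while the other, printed as 10 spots, was detected on none. Col15a1 had 2 probes 110 bases apart, with detection on all 4 arrays and on none. Each gene is described below by its brightest probe that was detected on at least 2 arrays, and 22 of the 39 genes have one.

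Among the fibrillar genes, 7 of 11 could be tested for a difference between 3D and 2D, and no gene of this class was lower in 3D in both experiments. Col1a2, the second chain of type I collagen, had levels of -3.56 (2D) and -2.33 (3D) in iHep-1, and -3.67 and -3.46 in iHep-2. The values of 3D lay above those of 2D, mostly through iHep-1. The mean difference was 0.72 (SE 0.469, n = 2 and 2), with an adjusted p of 0.73 in limma. Since cells were lysed in bulk, fewer cells that make a transcript and less transcript per cell cannot be told apart, here and in what follows.

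Col1a1, the major chain of type I collagen, is printed as 10 spots of 1 probe on each array. In 3D of iHep-1 all 10 spots were well above background, with signals from 56.8 to 76.1 and a median of 67.1 intensity units. The medians elsewhere were 2.08 in 2D of iHep-1, 1.78 in 2D of iHep-2 and 1.91 in 3D of iHep-2. Apart from 1 of 10 spots in 2D of iHep-2, no spot on those arrays was well above background, and 7 of the 10 spots there entered the mean, the others being marked as outliers. The level was -3.15 in 3D of iHep-1 and -7.76, -8.39 and -7.70 on the other 3 arrays. Against the dimmest detected signal in 2D, the mean of 3D came to 1.60-fold, and only 1 of the 2 arrays of 3D measured it. That mean holds the undetected reading of iHep-2, so 1.60 is not a minimum. The other 2 Col1a1 probes were not well above background on any array.

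**Figure D2:**
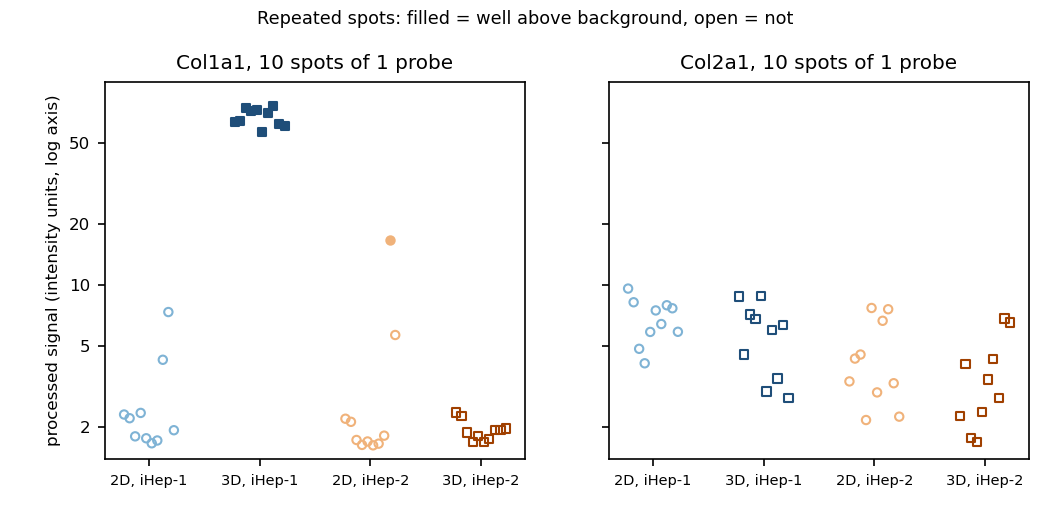
Processed signal in intensity units, on a log axis, of the repeated spots of 1 Col1a1 probe and 1 Col2a1 probe on each array; filled spots are well above background, open spots are not. The 10 Col1a1 spots of 3D iHep-1 lie between 56.8 and 76.1, above all other spots of that probe, and no Col2a1 spot was well above background.

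Col3a1, the type III chain found with type I in reticular fibres, had the same detection: -5.46 in 3D of iHep-1 against -8.15 in 2D, and -6.99 and -7.40 in 2D and 3D of iHep-2. No bound on a fold could be given, since the mean of 3D did not pass the dimmest detected signal. Fibroblast markers were also more often detected in 3D of iHep-1 (9 of 12) than on the other 3 arrays (6 to 8). Of all gene names, 58.7% were detected in 3D of iHep-1 and 55.9% to 58.5% on the other 3 arrays. Dpt, a matrix protein of fibroblasts, was detected in 3D of iHep-1 only. The summed level of the fibroblast markers was 29.6 and 52.6 in 2D and 3D of iHep-1 and 80.0 and 33.1 in iHep-2, in multiples of the 75th percentile. Vim was the largest part of this sum on each array, with levels of 3.61 and 4.72 in iHep-1 and 5.86 and 3.90 in iHep-2. Thy1, Lum and Dcn were not well above background there either, and the part of other cells in the result was not tested.

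The type V and XI chains set fibril diameter, and their levels did not move together. Col5a1 had levels of -4.99 (2D) and -5.26 (3D) in iHep-1, and -5.90 and -4.60 in iHep-2, so the cultures overlapped. Col5a2 was not well above background on any array. Col5a3 was detected only in iHep-2, at -5.29 in 2D and -4.45 in 3D, and read -8.07 and -7.21 in iHep-1. Col11a1 had -2.84 and -2.0 in iHep-1 and -2.26 and -1.74 in iHep-2, with a mean difference of 0.68 (SE 0.315) that did not pass the test (limma, adjusted p = 0.696). Col11a2 had -1.30 and -2.44 in 2D and 3D of iHep-1 but -0.97 and -0.35 in iHep-2. The 2 type XI genes thus had differences of the same sign in iHep-2 only.

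Larger values belonged to 3D of iHep-2. Col2a1 had levels of -1.24 and -0.85 in 2D and 3D of iHep-1 and of -1.53 and 1.57 in iHep-2. The difference was 3.10 in iHep-2 and 0.39 in iHep-1, and the mean of 1.75 had an SE of 0.935 (limma, adjusted p = 0.706). It rests on 1 of 3 Col2a1 probes: the overlapping 10-spot probe was not well above background, at -6.31, -6.80, -7.24 and -6.77. Col27a1, a fibrillar collagen of cartilage, was detected in iHep-2 at -4.46 in 2D and -1.81 in 3D, and its second probe was detected only in 3D of iHep-2, at -4.25. Col24a1, its close relative, was detected in 3D of iHep-2 alone, at -4.33, against -6.01 in 2D of iHep-2.

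Of 6 basement membrane collagens, 4 could be tested. Of these 4, 3 read lower in 3D in both experiments (Col4a1, Col4a2 and Col4a4), beside 32.8% of all genes. Col4a6 read higher in both, beside 33.3% of all genes. None of these 4 passed the adjusted test. Col4a1 and Col4a2, which encode the 2 chains of the common type IV network, were lower in 3D in both experiments and with both probes of each gene. Col4a1 had levels of 2.23 (2D) and 1.17 (3D) in iHep-1, and 2.22 and 1.28 in iHep-2. Both values of 3D lay below both values of 2D, by 1.06 and 0.94. Col4a2 had levels of 1.57 and 0.81 in iHep-1 and 1.96 and 0.78 in iHep-2, again without overlap. The mean differences of -1.0 (SE 0.209) and -0.97 (SE 0.252) correspond to levels 2.0-fold and 1.96-fold higher in 2D.

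The coding probes printed above gave the same picture on their own scale. The Col4a1 probe read 1.72 and 0.73 in 2D and 3D of iHep-1 and 1.87 and 1.09 in iHep-2. The Col4a2 probe read 0.16 and -0.62 in iHep-1 and 0.44 and -0.53 in iHep-2. Probe by probe, the differences ranged from -0.76 to -1.18 for Col4a2 and from -0.78 to -1.06 for Col4a1. Neither gene passed the adjusted threshold: the unadjusted p was 0.0116 for Col4a1 and 0.0224 for Col4a2, and both had an adjusted p of 0.684 in limma. With the experiments as a replicate block the adjusted p was 0.321 and 0.347.

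**Figure D3:**
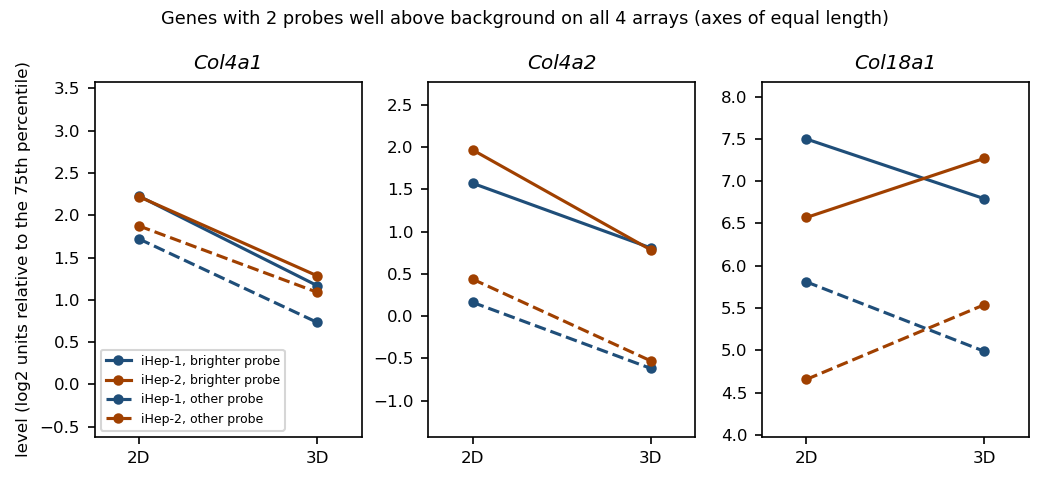
Levels of both probes of Col4a1, Col4a2 and Col18a1 in 2D and 3D, in log2 units relative to the 75th percentile of the array, with 1 line per probe and experiment and axes of equal length. All 8 lines of Col4a1 and Col4a2 slope down from 2D to 3D; the Col18a1 lines slope down in iHep-1 and up in iHep-2 with both probes.

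The other type IV chains are known for specialised membranes such as that of the kidney glomerulus. Col4a4 had levels of 0.52 and -0.04 in 2D and 3D of iHep-1 and of 0.34 and 0.05 in iHep-2, lower in 3D without overlap, by a mean of -0.43 (SE 0.219; limma, adjusted p = 0.706). The file places only 29 bases of this probe on the genome, and the second Col4a4 probe was not well above background on any array. Col4a6 had -1.71 and -1.65 in iHep-1 and -1.90 and -1.37 in iHep-2, slightly higher in 3D. Col4a5, its neighbour on the X chromosome, was detected in 3D of iHep-1 only, at -4.43 against -8.06 in 2D and -7.15 and -7.62 in iHep-2. Against the dimmest detected signal in 2D, its mean in 3D came to 1.06-fold, with 1 of 2 arrays of 3D measuring it. That mean holds the undetected reading of iHep-2, so 1.06 is not a minimum. Col4a3 was not well above background on any array.

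Fibril-associated collagens held the largest difference of the 22 collagens tested. They also held the 2 genes past 2-fold higher in 3D in both experiments. By the mean of both experiments Col15a1 (3.97-fold), Col2a1 (3.35), Col6a1 (2.99) and Col8a1 (2.56), of other classes, were past 2-fold too. Col14a1, which lies on the surface of fibrils and is made by fibroblasts, stood at -0.50 in 2D of iHep-1 and -0.70 in 2D of iHep-2. It stood at -5.49 in 3D of iHep-1 and at -7.68, no longer well above background, in 3D of iHep-2. The arrays of 2D differed by -0.19 between iHep-2 and iHep-1, while the mean difference between 3D and 2D was -5.98 (SE 0.846). With the dim array of 3D set to its dimmest detected signal, the mean of 2D was at least 30.4-fold higher, and 1 of the 2 arrays of 3D measured it. The adjusted p was 0.684 in limma and 0.206 with the replicate block, and the mean difference was -2.45 with normexp background correction. Its second probe, nearer the start of the gene, was not well above background on any array.

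Col16a1 and Col22a1 passed 2-fold, 3D over 2D, in both experiments. Col16a1, a FACIT of skin and cartilage fibrils, went from -6.89, not well above background, to -4.49 in iHep-1 and from -4.59 to -3.57 in iHep-2. Col22a1, found where muscle meets tendon, went from -6.08, also not well above background, to -4.56 in iHep-1 and from -4.21 to -3.10 in iHep-2. In both genes 2D of iHep-2 read close to 3D of iHep-1: the cultures did not overlap for Col16a1 and overlapped for Col22a1. The mean differences were 1.71 (SE 0.95) and 1.32 (SE 0.908), with adjusted p of 0.714 and 0.745 in limma. Without the 2D array of iHep-1 they came to 0.56 and 0.39, and with normexp correction to 0.42 and 0.41. Neither gene stayed past 2-fold in both experiments with quantile normalization, spike-in scaling, normexp correction or the series table of the authors.

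The type IX genes, whose product coats type II fibrils, split. Col9a2 had levels of -3.43 and -2.93 in 2D and 3D of iHep-1 and of -3.52 and -3.16 in iHep-2, higher in 3D without overlap. Col9a3 was detected in 2D only, at -5.25 and -6.11, and read -7.09 and -6.82 in 3D. Its mean in 2D was at least 1.09-fold that of 3D, and it did not pass the test (limma, adjusted p = 0.684). It entered the test only through the arrays of 2D, and with normexp correction its difference was 0.033. Col9a1, Col12a1 and Col19a1 were not well above background on any array.

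Multiplexins are collagens of the basement membrane zone that carry sugar chains, and the end of Col18a1 is released as endostatin. Col18a1 had levels of 7.50 and 6.79 in 2D and 3D of iHep-1 and of 6.57 and 7.27 in iHep-2. It was lower in 3D in iHep-1 and higher in iHep-2 by nearly the same size, and its coding probe, in the endostatin part, read 5.81 and 4.99, then 4.66 and 5.54. The mean difference was 0.00 within an SE of 0.44. Col15a1, its relative, had levels of -5.44 and -4.87 in iHep-1 and of -5.33 and -1.92 in iHep-2, so 3D of iHep-2 stood apart from the other 3 arrays.

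Type VI collagen forms beaded filaments around cells. Of its genes under the naming rule, Col6a1 and Col6a2 were detected, in iHep-1 only. Col6a4, outside the rule, had a probe detected on all 4 arrays. Col6a1 had levels of -3.24 and -1.04 in 2D and 3D of iHep-1, and -6.87 and -5.90, not well above background, in iHep-2. Col6a2 was detected in 3D of iHep-1 only, at -4.58 against -6.20 in 2D and -6.66 and -7.02 in iHep-2. Against the dimmest detected signal in 2D, its mean in 3D came to 1.24-fold. That mean holds the undetected reading of iHep-2, so 1.24 is not a minimum. Col6a3 was not well above background on any array.

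The network collagens of type VIII and X, made by endothelium and by growth plate cartilage, also differed by experiment. Col8a1 had levels of -2.04 and -0.17 in 2D and 3D of iHep-1 and of -4.68 and -3.83 in iHep-2. Both iHep-1 arrays lay above both iHep-2 arrays, and within each experiment 3D lay above 2D. Its second probe read -5.91 and -4.12 in iHep-1 and -8.23 and -7.45 in iHep-2, with detection in 3D of iHep-1 only. Col10a1 had -4.26 and -4.05 in iHep-1 and -8.46 and -7.79, not well above background, in iHep-2. Col7a1, the anchoring fibril chain of skin, stayed between -2.91 and -2.47 on all 4 arrays. Of 6 endothelial markers 3 and 2 were detected in iHep-1 (2D, then 3D) and 3 and 2 in iHep-2. Stab2 and Vwf were detected on all 4 arrays and Cdh5 on both 2D arrays only. Pecam1, Kdr and Tie1 were not well above background on any array.

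Across the 22 collagens tested, 0 passed an adjusted p of 0.05 for 3D against 2D in limma, and neither did any of all 16451 genes (0%). At an unadjusted p of 0.05 there were 4 collagens lower in 3D (Col4a1, Col4a2, Col9a3 and Col14a1) and none higher, and 1159 of all genes (7.05%), of which 489 (2.97%) were lower. With the experiments as a replicate block there were 9 collagens and 2175 of all genes (13.2%): the same 4 lower, and 5 higher in 3D (Col5a3, Col6a1, Col8a1, Col16a1 and Col22a1). Col9a3, Col5a3 and Col6a1 are among the genes detected in 1 culture or 1 experiment only. Past 2-fold lower in both experiments was 1 of 22, Col14a1, against 2.12% of all genes. Past 2-fold in the other direction were 2 of 22, Col16a1 and Col22a1, against 4.26%. Lower in both experiments at any size were 5 of 22 (32.8% of all genes), and higher in both were 12 of 22 (33.3%); the sign differed between the experiments for 5 of 22 (33.8%). Of the 12, 3 were not well above background on either array of 1 experiment (Col6a1 and Col10a1 in iHep-2, Col5a3 in iHep-1), so their sign there is that of background values. The cultures did not overlap, with 3D lower, for 5 of 22 (21.5%) and, with 3D higher, for 7 of 22 (20%).

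The median difference of the 22 collagens was 0.29 in iHep-1 and 0.65 in iHep-2, with 0.48 for the mean of both, beside -0.02, 0.04 and 0.02 for all genes. The medians of the means by class were 0.72 over 7 fibrillar genes, -0.70 over 4 basement membrane genes and 0.43 over 5 FACIT genes. Scaling by spike-in control spots moved the median of all genes to -1.16 and turned those of the collagens (-0.70), the fibrillar (-0.46) and the FACIT genes (-0.75) below 0. That scaling shifts all genes of an array alike, and its size differed between the experiments. The spike-in spots deviated from their mean over the arrays by a median of -0.85 and 1.18 log2 units in 2D and 3D of iHep-1. In iHep-2 they deviated by -0.08 and -0.19. All these medians hold only genes detected on at least 2 arrays and describe these arrays without a test. Some of their values are background values, such as Col10a1 in iHep-2 (0.67). The median of undetected probes was -7.99 and -8.08 in 2D and 3D of iHep-1, and -8.25 and -7.58 in iHep-2. Background values thus read higher in 3D of iHep-2. Over the 14 collagens detected on all 4 arrays the median of the means was 0.36, beside 0.01 for all genes.

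**Figure D4:**
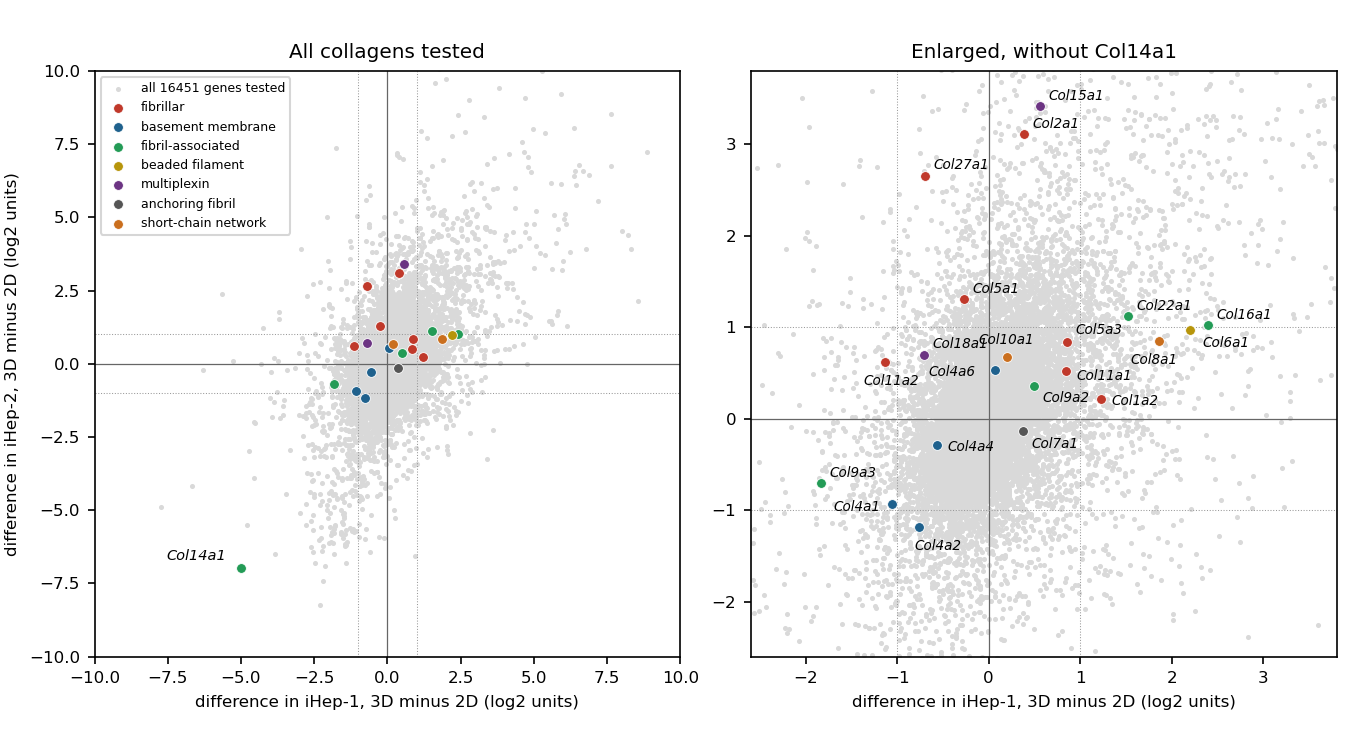
Difference between 3D and 2D (log2 units) in iHep-1 on the horizontal axis and in iHep-2 on the vertical axis for the 22 collagens tested, by class, over all 16451 genes in grey; 4 genes lie outside the left panel, and the right panel enlarges the centre. Dotted lines mark 2-fold; with the scaling to the 75th percentile Col14a1 lies at the lower left, Col16a1 and Col22a1 are past both dotted lines on the upper right, and Col2a1, Col15a1 and Col27a1 are high in iHep-2 alone.

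The experiments differed in which collagens were detected. With culture as a block, 305 of 16451 genes (1.85%) differed between iHep-2 and iHep-1 in limma at an adjusted p of 0.05, and 2 collagens were among them. Col10a1 was at least 3.33-fold higher in iHep-1 (adjusted p = 0.0423), and it was not well above background on either array of iHep-2. Col5a3 was at least 2.23-fold higher in iHep-2 (adjusted p = 0.0451), and it was not well above background on either array of iHep-1. Each entered the test only through the 2 arrays on which it was detected, so both calls describe detection and are not read as support for a difference of a given size. With normexp background correction the differences shrank to -0.49 (adjusted p = 0.538) for Col10a1 and 0.46 (adjusted p = 0.6) for Col5a3. Without culture as a block neither passed, with adjusted p of 0.0533 and 0.132.

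At least 2-fold lower in iHep-2 in both cultures were 3 of 22 collagens (5.74% of all genes): Col6a1, Col8a1 and Col10a1. At least 2-fold higher in both were also 3 of 22 (5.12%): Col5a3, Col22a1 and Col27a1. Of these 6 genes, 4 were detected in 1 experiment only (Col5a3, Col6a1, Col10a1 and Col27a1) and entered the test through it. Nothing is therefore read from the counts or from the p-values of these 4 genes. Against the dimmest detected signal, Col6a1 came to 13.5-fold in iHep-1 over iHep-2, and Col27a1 to 7.40-fold in iHep-2 over iHep-1. Neither passed the adjusted threshold in limma. Each fold describes detection, since the gene entered only through the experiment where it read high. Col8a1, detected on all 4 arrays, differed by -2.65 in 2D and -3.66 in 3D (limma, adjusted p = 0.0661). At an unadjusted p of 0.05 there were 7 collagens, the same 4 among them, and 17.8% of all genes.

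A list of 47 genes for making, processing and binding collagen was set beside them, and 33 of its genes could be tested. None passed the adjusted threshold for 3D against 2D, and 2 had an unadjusted p under 0.05, beside 7.05% of all genes. In both experiments 12 were lower and 10 higher in 3D, beside 32.8% and 33.3% of all genes. Past 2-fold in both was 1 gene in each direction, beside 2.12% (lower) and 4.26% (higher). Inside the cell, P4ha1, the catalytic subunit of prolyl hydroxylase, had levels of 1.31 and 0.74 in iHep-1 and 1.36 and 0.80 in iHep-2, lower in 3D without overlap. P4hb, the other subunit and a disulfide isomerase, had 5.19 and 5.47, then 5.12 and 6.06. Serpinh1, the collagen chaperone HSP47, had 0.60 and 0.31 in iHep-1 and 2.66 and 1.78 in iHep-2, so it differed more between experiments than between cultures. Plod1, a lysyl hydroxylase, kept between 0.14 and 0.56 on all 4 arrays.

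Outside the cell, Loxl2, a cross-linking lysyl oxidase, had levels of 2.08 and 0.16 in 2D and 3D of iHep-1 and 0.91 and -1.25 in iHep-2. It was the gene of the list past 2-fold lower in both experiments. Tgm2, which joins matrix proteins through glutamine and lysine, had 3.11 and 4.59, then 3.64 and 4.88, and was past 2-fold higher in both. Lox, the founding lysyl oxidase, was detected in iHep-1 only, at -4.72 and -4.07, against -8.50 and -7.78 in iHep-2. Bmp1, which removes the C-terminal propeptide, had 2.5 and 2.34, then 1.55 and 2.43. Its enhancer Pcolce had 3.72 and 5.03, then 3.86 and 3.69, highest in 3D of iHep-1, the array on which Col1a1 and Col3a1 were detected. Sparc, a collagen-binding matrix protein, had -2.64 and -1.44 in iHep-1 and -4.95 and -4.51 in iHep-2.

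**Figure D5:**
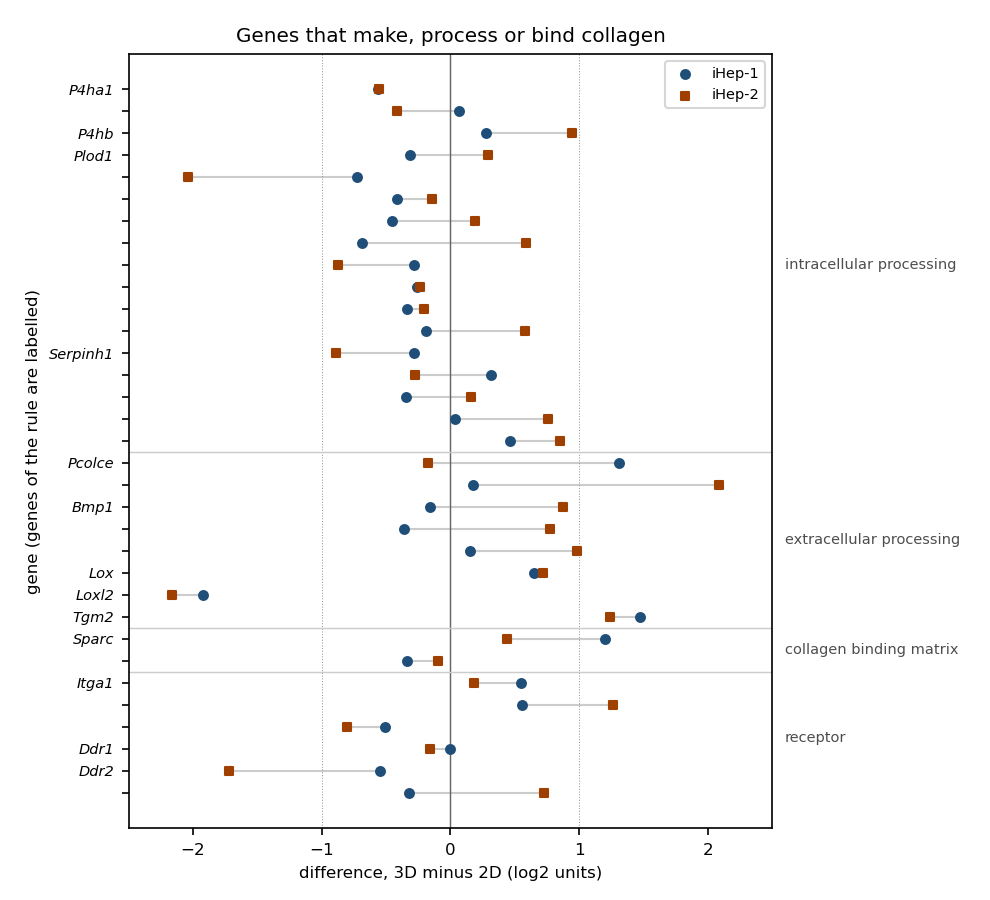
Difference between 3D and 2D (log2 units) in iHep-1 (circles) and iHep-2 (squares) for the 33 tested genes that make, process or bind collagen, with the genes described in the text labelled. Loxl2 is past the dotted 2-fold line to the left with both symbols and Tgm2 past the one to the right.

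Among receptors, Ddr1, the discoidin receptor of epithelia, had levels of 5.07 and 5.07 in iHep-1 and 4.88 and 4.72 in iHep-2. Ddr2, the fibrillar collagen receptor of mesenchymal cells, had 3.67 and 3.12, then 3.72 and 2.0, lower in 3D without overlap. Itga1, the integrin chain for type IV collagen, had -2.07 and -1.53, then -2.16 and -1.98. Itga2, its relative for type I collagen, was detected in 2D of iHep-2 only.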

How the data were processed

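Each sample is 1 array of 1 culture of 1 experiment. The deposited scanner files give spot intensity from Agilent Feature Extraction, where the file headers state version 10.7.1.1 and the submitters' processing notes 9.5.1.1, with background removed within the array and no scaling between arrays. Flags per spot in other columns of the deposited files mark signal well above background, saturation and outliers. Spots marked as outliers were left out (72 to 85 per array) and no spot was saturated. From the processed intensity, log2 values were taken relative to the 75th percentile of the array over all spots that are not controls, and spots of 1 probe were averaged. Of the probes of a gene detected on 2 or more arrays, the one with the highest mean stood for the gene. Differences were tested by limma (version 3.58.1, R 4.3.3) through lmFit and eBayes, two-sided, adjusted by Benjamini-Hochberg over all 16451 genes at 0.05. Folds given as at least, or against the dimmest detected signal, set the brighter mean against a mean over the arrays of the dimmer group. That second mean takes, per array, the higher of the dimmest detected signal and the probe's own.

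The design text makes the replicate number the experiment, so the arrays are paired. The main fit for 3D against 2D left this pairing out, and SE and p are from it unless the replicate block is named. With the block the unadjusted p in limma moved from 0.228 to 0.0101 for Col22a1 and from 0.0116 to 0.0172 for Col4a1. No gene passed the adjusted threshold in either fit. Across genes, the deviations from the culture mean correlated at r = 0.66 between arrays of 1 experiment. The series table of the authors, linear intensity with equal distributions within each experiment, served as an alternative. On simulated data with the spread of the main fit, a change of 2 log2 units was recovered for 0 of 100 genes. A change of 6 was recovered for 88 of 100, for 3D against 2D over 16451 genes. Simulated arrays were independent and held no pairing, unlike the real ones, so these rates do not describe the fit with the replicate block. Of the 78 probes, 63 matched a RefSeq accession of the same symbol and 0 of another.

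All collagens could be named; from the list of 47 genes those past 2-fold in both experiments and 13 set genes were named. The members and lists were chosen with earlier results of these data known.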

Additional observations from a re-analysis of the deposited data

Results flagged for a closer look

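For 5 of 22 collagens the difference between 3D and 2D had opposite signs in the experiments, against 33.8% of all genes tested. With 1 array per culture and experiment the difference between the experiments was not tested. Col18a1, the source of endostatin, differed by -0.71 in iHep-1 and 0.70 in iHep-2, and its other probe by -0.82 and 0.88. Col11a2 differed by -1.14 and 0.62. Col5a1 differed by -0.27 and 1.30. Col27a1 differed by -0.70 and 2.65, and the first value rests on arrays where it was not well above background. Col7a1 differed by 0.37 and -0.13. Of the processing genes, Pcolce differed by 1.31 and -0.17, Bmp1 by -0.16 and 0.88, and Plod1 by -0.32 and 0.29. None of the 22 collagens was past 2-fold in opposite directions, against 0.808% of all genes.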

How the results depend on the processing

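The alternatives were tried one at a time. Under each of them 3D minus 2D kept its sign for Col4a1, Col4a2, Col4a4, Col2a1 and Col15a1. It ranged from 0.53 to 2.96 for Col2a1 and from 0.51 to 3.47 for Col15a1. Col14a1, Col16a1 and Col22a1 kept their sign wherever they could be tested, which leaves out the filter for detection on all 4 arrays. The sizes moved: Col16a1 (1.71) came to 0.42 with normexp, 0.53 with spike-in scaling and 0.56 without 2D of iHep-1, and Col22a1 (1.32) to 0.41, 0.14 and 0.39. Without 2D of iHep-2 they came to 2.86 and 2.25, and Col22a1 to 2.05 and 0.59 without 3D of iHep-1 or iHep-2. Col14a1 (-5.98) came to -2.45 with normexp. No collagen was called for 3D against 2D except Col14a1 with spike-in scaling (-7.16, adjusted p = 3.29e-09 in limma). In that fit the prior degrees of freedom were infinite, against 1.58 in the main fit, so limma gave every gene the same variance. The p therefore does not measure the spread of Col14a1 itself. That scaling moved the median of all genes to -1.16 and called 273 genes for 3D against 2D and 763 between the experiments. Past 2-fold in both experiments it gave 4 collagens lower and 0 higher, and 7 and 0 of the processing list. These counts stand beside 20.4% and 0.894% of all genes. Its medians were -0.70 for collagens, -0.46 for fibrillar, -1.88 for basement membrane and -0.75 for FACIT genes. Differences that turned below 0 were Col10a1 -0.74, Col11a1 -0.50, Col1a2 -0.46, Col27a1 -0.20, Col4a6 -0.88, Col5a1 -0.66, Col5a3 -0.33, Col7a1 -1.06 and Col9a2 -0.75. Collagens past 2-fold higher in both experiments numbered 0 with quantile normalization, the series table or normexp. They numbered 1 with the percentile over detected probes and 0 among probes detected on all 4 arrays. Those past 2-fold lower numbered 2 with normexp and 0 among probes detected on all 4 arrays, a filter that drops Col14a1, Col16a1 and Col22a1. The FACIT median was 0.32 with quantile normalization, 0.29 with normexp, 0.31 with the series table and 0.25 with no filter, and the basement membrane median was -0.15 with no filter. Col9a3 came to 0.033 with normexp, and Col18a1 to 0.014 over both probes. Between the experiments 707 genes were called with normexp, 141 among probes detected on all 4 arrays, 493 with no filter and 54 with no replicate block for culture. With a replicate block for the experiments 0 genes were called for 3D against 2D, and 2175 genes, 9 of them collagens, had an unadjusted p under 0.05. Without 1 array the medians ranged from 0.13 to 0.39 for collagens, from 0.19 to 0.98 for fibrillar, from -0.72 to -0.65 for basement membrane and from 0.31 to 0.54 for FACIT genes. Leaving out 1 array also changed the sign of Col10a1 (-1.66 to 2.54), Col11a2 (-1.31 to 0.79), Col18a1 (-0.47 to 0.46), Col27a1 (-1.80 to 3.76), Col5a3 (-0.54 to 2.24), Col6a1 (-0.85 to 4.01), Col7a1 (-0.10 to 0.34) and Col8a1 (-0.47 to 3.19). Counts in both experiments cannot be made with 1 array left out, and the comparison of experiments then has no residual degree of freedom. The causes of these changes were not tested. Dim probes limit most collagens: 45 of 78 probes were not well above background on any array.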

Other observations

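Outside the naming rule, 4 probes carry older gene names that RefSeq now pairs with collagen symbols. A probe of Col6a4, a type VI chain, was detected on all 4 arrays, at -3.64 and -4.57 in 2D and 3D of iHep-1 and -4.20 and -2.93 in iHep-2, so its cultures overlapped. The other Col6a4 probe and those of Col6a6 and Col26a1 were not well above background on any array.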
